A study of Mus musculus with 3 samples.

Results

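The MYC network genes studied here were Myc, Mycn, Mycl, Max, Mxd1, Mxd3, Mxd4, Mxi1, Mnt and Mlx. They encode the MYC proteins, their dimer partner MAX, and the MXD and MNT proteins that compete with them for MAX. Mlx encodes MLX, a further partner of some of these repressors. Every non-control probe whose accession is a transcript of one of these genes was taken, which gave 12 probes of 39429 on the array and 10 genes of 20659 that could be named. Mxd1 and Mxd4 had 2 probes each and the other members 1 each. The probes were read on 3 single-colour microarrays, on which a Cy3-labelled copy of the RNA of one sample is hybridised and brightness is recorded per spot. The samples were mouse cells labelled as embryonic stem cells, and the groups were wildtype cells, LIFR KO cells and gp130 KO cells, with 1 array in each. LIFR binds the cytokine LIF and signals together with gp130, the product of Il6st, which also serves the IL-6 family of receptors. The labels give the genotype and a standard culture. The strain, the clones, the deleted alleles and the LIF content of the medium were not given in the sources used here.

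MYC activates genes of ribosome building, metabolism and cell division when it is bound to MAX at the E-box sequence CACGTG. The MXD proteins, encoded by Mxd1, Mxd3, Mxd4 and Mxi1, and MNT also bind MAX at E-boxes, but they bring in SIN3 and histone deacetylases and repress. MLX is a partner of MXD1, MXD4, MNT and the glucose-sensing factors of the MONDO family. In mouse embryonic stem cells Myc is known as a gene that LIF induces through STAT3, and loss of MYC activity is known to slow growth and protein synthesis in these cells.

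Each genotype was 1 array, so there was no spread between cultures, no test was possible, and every difference is one between 2 arrays. The precision known from the arrays is that of repeated spots, whose scatter gives a log2 ratio of 2 spots a 95% half-width of 0.14 to 0.15. Each member probe had 1 spot. The software's own error of a log2 ratio was between 0.20 and 0.26 for the 8 members well above background. That error is not widened to 95%, so it is not on the scale of the half-width. Probes of the same gene differed too. In the LIFR KO over wildtype the 2 log2 ratios were 0.49 apart for Mxd1 and 0.80 for Mxd4, and in the gp130 KO over wildtype 0.10 and 0.62. The scatter of repeated spots is therefore not the precision of a gene's ratio. Between 58.3% and 65.5% of probes were well above background by the scanner software's own flag, called detected here, and the 75th percentile of the signal, to which each array was scaled, lay between 654 and 750. The LIFR KO array carried a region of stray signal with 928 spots, 2.16% of the non-control spots. No member spot lay in it, and the local background at the members' spots was 19 to 30 on all 3 arrays. Neither targeted gene lost its signal on its own knockout array. The detected Lifr probe read 34.9, 29.97 and 34.7 on the wildtype, LIFR KO and gp130 KO arrays, a scaled log2 ratio of -0.39 for the LIFR KO over wildtype. The Il6st probe read 329, 369 and 299, a ratio of -0.11 for the gp130 KO over wildtype, and the place of these probes relative to the deletions is unknown here. Arrays are therefore named by their labels alone. Of 14 stem cell markers, 10 were detected on every array, while Sox2, Zfp42, Dppa3 and Fgf4 were detected on none. The dimmest of the 10, Pou5f1, read 31.2, 22.7 and 20.3 on the wildtype, LIFR KO and gp130 KO arrays. The lowest detected signals on these arrays were 6.94, 16.7 and 9.66. All 12 epithelial markers were well above background on every array.

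Among the members as read from their brighter probes, Myc differed most in both comparisons with the LIFR KO array. Its probe had a signal of 10313 on the wildtype array, 3288 on the LIFR KO array and 7253 on the gp130 KO array. The wildtype array was the brightest and the LIFR KO array the dimmest. Each step in that order was wider than the scatter of repeated spots. After scaling, Myc was 3.53-fold lower in the LIFR KO than in the wildtype sample (log2 ratio -1.82). Only 24 of the 14553 genes compared had a lower ratio. Myc was also 1.40-fold lower in the gp130 KO sample than in wildtype (log2 ratio -0.48), and 737 of 14905 genes had a lower ratio. Set against each other, the gp130 KO sample had 2.53-fold more Myc signal than the LIFR KO sample (log2 ratio 1.34), and 79 of 14766 genes had a higher ratio. The 3 comparisons share arrays, so they are not independent of each other. In a bulk sample, fewer cells with Myc RNA and less Myc RNA per cell cannot be told apart.

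**Figure D1:**
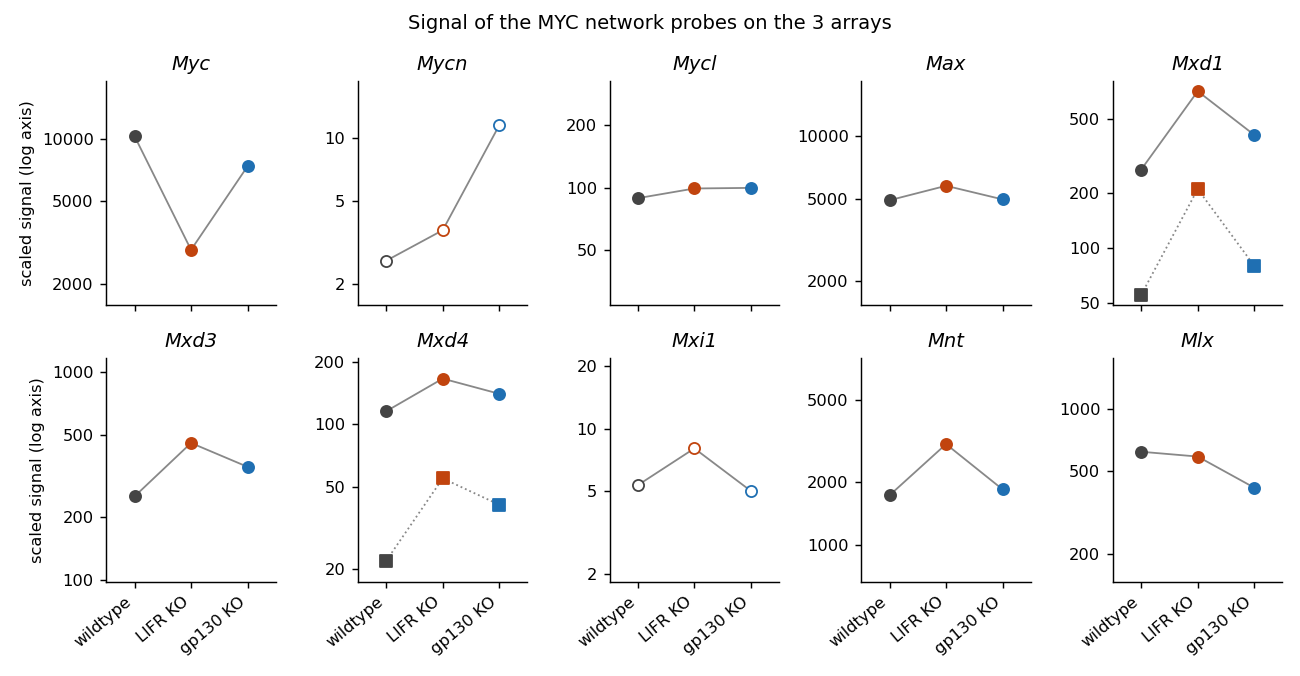
Signal of every member probe on the 3 arrays, 1 panel per gene, with the signal scaled to the 75th percentile of the wildtype array on a log axis of its own in each panel. Circles are the brighter and squares the dimmer probe of a gene, filled where well above background and open where not; each point is 1 array, without replicates. Myc is lowest on the LIFR KO array, where Mxd1, Mxd3, Mxd4 and Mnt are highest.

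The MXD genes Mxd1, Mxd3 and Mxd4 had the opposite order of arrays to Myc. Mxd1, which encodes a repressor that appears as cells leave proliferation, read 267, 801 and 405 at its brighter probe on the wildtype, LIFR KO and gp130 KO arrays. Its dimmer probe read 55.7, 235 and 78.7. Both probes were brightest on the LIFR KO array and dimmest on the wildtype array. The brighter probe was 2.67-fold higher in the LIFR KO than in wildtype (log2 ratio 1.41) and the dimmer one 3.75-fold higher (1.91). Only 235 genes had a higher ratio than the brighter probe. The probes stood 1.54-fold and 1.44-fold above wildtype in the gp130 KO sample (log2 ratios 0.63 and 0.53). Between the knockouts, Mxd1 was lower in the gp130 KO sample by 1.73-fold at the brighter probe (log2 ratio -0.79) and by 2.61-fold at the dimmer one (-1.38).

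Mxd3, the member of the family linked to the S phase of dividing cells, read 252 on the wildtype, 514 on the LIFR KO and 344 on the gp130 KO array. The LIFR KO sample was 1.81-fold above wildtype (log2 ratio 0.86) and the gp130 KO sample 1.39-fold above it (0.47). The order of the arrays was that of Mxd1, with both steps wider than the scatter of repeated spots. Mxd4 read 115, 186 and 137 at its brighter probe and 22.0, 61.6 and 40.2 at its dimmer one. The probes gave the same order of arrays and different sizes. At the brighter probe the steps of 0.24 and 0.28 were near the software error of 0.21. In the LIFR KO sample they were 1.44-fold and 2.49-fold above wildtype (log2 ratios 0.52 and 1.32), and in the gp130 KO sample 1.21-fold and 1.86-fold (0.28 and 0.90). Which Mxd4 probe is nearer to the true ratio was not tested.

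Mnt encodes a repressor found in both resting and dividing cells. Its probe read 1733 on the wildtype, 3441 on the LIFR KO and 1818 on the gp130 KO array. The LIFR KO array stood apart, while the other arrays differed by less than the scatter of repeated spots (log2 ratio 0.10). Mnt was 1.76-fold higher in the LIFR KO than in wildtype (log2 ratio 0.82) and 1.65-fold lower in the gp130 KO than in the LIFR KO sample (-0.72). Mxi1, the remaining MXD gene, was detected on no array, with signals of 5.35, 9.05 and 4.93, and it entered no comparison.

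The promoters of the 4 repressor genes that were higher in the LIFR KO sample are shown because they differ in the sequences that MYC network proteins read. The RefSeq promoter table, of build GRCm38.p6, held 9 of the 10 members, all but Myc, and the 250 bases before the transcript start are printed 5′ to 3′ along the transcript. Capitals mark every E-box (CACGTG) and GC box (GGGCGG, the core of the site of SP1-type factors, searched on both strands, with overlapping matches run together).
Mxd1 promoter, chr6:86669160-86669409, minus strand: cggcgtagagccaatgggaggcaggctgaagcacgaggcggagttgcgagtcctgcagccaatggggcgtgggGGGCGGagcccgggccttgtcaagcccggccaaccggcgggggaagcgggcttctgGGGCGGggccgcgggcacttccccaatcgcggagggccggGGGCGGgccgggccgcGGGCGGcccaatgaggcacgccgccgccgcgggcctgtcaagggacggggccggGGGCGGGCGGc
Mxd3 promoter, chr13:55329732-55329981, minus strand: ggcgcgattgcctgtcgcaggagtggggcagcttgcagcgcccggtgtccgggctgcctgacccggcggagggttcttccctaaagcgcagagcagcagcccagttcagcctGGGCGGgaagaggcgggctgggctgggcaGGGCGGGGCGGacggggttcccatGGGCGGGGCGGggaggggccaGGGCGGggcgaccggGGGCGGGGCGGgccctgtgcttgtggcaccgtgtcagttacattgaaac
Mxd4 promoter, chr5:34187711-34187960, minus strand: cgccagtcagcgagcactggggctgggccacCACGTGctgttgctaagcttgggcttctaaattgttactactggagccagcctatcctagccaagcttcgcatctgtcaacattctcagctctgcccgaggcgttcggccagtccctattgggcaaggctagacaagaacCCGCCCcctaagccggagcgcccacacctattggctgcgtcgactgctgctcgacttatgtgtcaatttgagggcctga
Mnt promoter, chr11:74830674-74830923, plus strand: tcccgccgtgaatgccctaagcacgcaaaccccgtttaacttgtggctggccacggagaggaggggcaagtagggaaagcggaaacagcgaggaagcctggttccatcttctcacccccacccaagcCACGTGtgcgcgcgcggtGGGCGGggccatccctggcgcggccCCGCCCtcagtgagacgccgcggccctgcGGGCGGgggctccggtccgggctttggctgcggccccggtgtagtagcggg
Mxd1 and Mxd3 are rich in GC boxes, with 6 and 8 matches and no E-box, and their GC content was 78.4% and 73.2% against a median of 52.4% over all promoters of the table. Mxd4 had 1 GC box and 1 E-box, which starts 219 bases before the transcript start. Mnt had 3 GC boxes and 1 E-box, which starts 123 bases before it.

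The E-box is printed with its flanks for the 3 members that held one, since it is the sequence that MYC-MAX, MXD-MAX, MNT-MAX and MLX dimers bind.
Mxd4 E-box, chr5:34187909-34187944, minus strand: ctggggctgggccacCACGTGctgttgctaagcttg
Mnt E-box, chr11:74830786-74830821, plus strand: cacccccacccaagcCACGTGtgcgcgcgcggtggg
Mlx E-box, chr11:101087235-101087270, plus strand: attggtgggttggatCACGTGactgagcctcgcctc
In Mlx it starts 40 bases before the transcript start. Of the 32851 promoter entries of the table, 6.02% held an E-box and 32.7% a GC box in the same window of 250 bases. The STAT-type site TTCNNNGAA, searched on both strands, was found in 7.02% of all entries and in none of the 9 members that have an entry, which leaves out Myc. These are matches of letters in a short window and not evidence of binding.

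Max, the common partner, differed little. It read 4918 on the wildtype, 6497 on the LIFR KO and 4876 on the gp130 KO array. Its log2 ratio was 0.23 in the LIFR KO and 0.01 in the gp130 KO sample, and the wildtype and gp130 KO arrays were within the scatter of repeated spots. The small LIFR KO difference of Max kept its sign in 13 of 14 other settings. With normexp background correction fitted on all spots, which includes the stray signal of the LIFR KO array, it was -0.23. Fitted without stray signal, normexp gave 0.23. Mlx read 622, 664 and 410. The gp130 KO array was the low one, 1.49-fold below wildtype (log2 ratio -0.57) and 1.41-fold below the LIFR KO array (-0.50), while the other arrays differed by less than the scatter of repeated spots (-0.08). There, 491 of 14905 genes had a lower ratio than Mlx.

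The other MYC genes gave no counterpart to Myc. Mycl, a MYC gene of low oncogenic strength, read 89.0 on the wildtype, 112 on the LIFR KO and 98.0 on the gp130 KO array, with a log2 ratio of 0.16 in each knockout. That is near the 0.14 to 0.15 of repeated spots and under the scanner error of 0.21 to 0.22 for this probe. With normexp on all spots Mycl was 1.26 in the LIFR KO sample, and with normexp fitted without stray signal it was 0.09. Mycn, which can stand in for much of the role of Myc in the mouse embryo, was detected on no array, with signals of 2.58, 4.07 and 11.4. Its signal was 0.107 to 0.379 of the local background around the spot, so no order of its levels can be read.

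**Figure D2:**
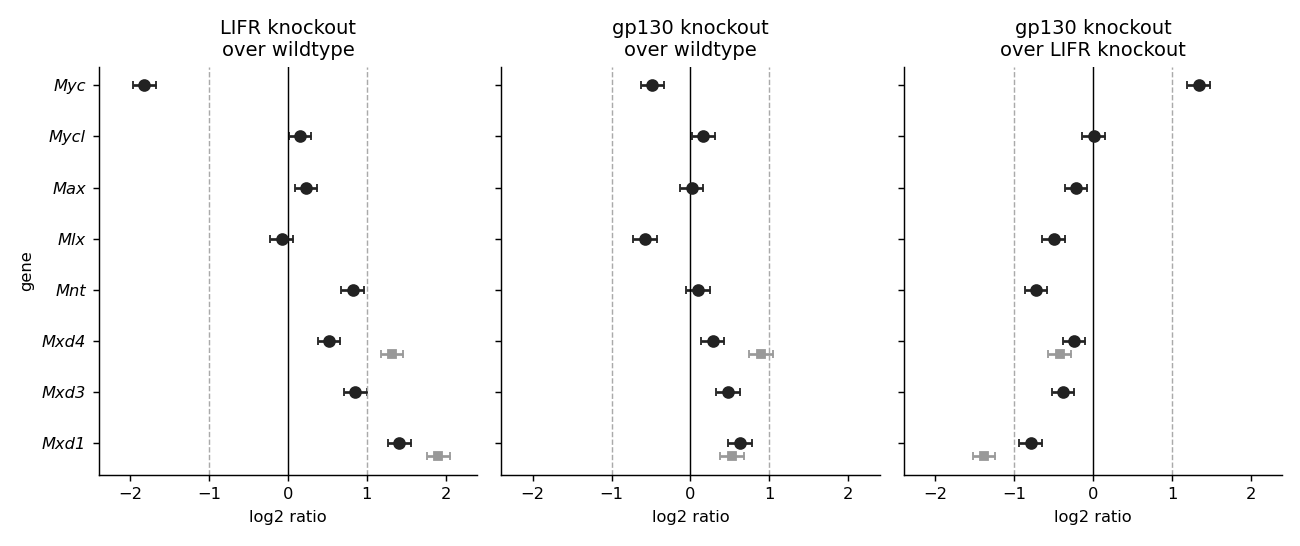
Log2 ratio of the 8 members well above background on all arrays, in each of the 3 comparisons, with 1 array per genotype. Black circles are the brighter probe, which stands for the gene, and grey squares the dimmer probe of Mxd1 and Mxd4; bars are the 95% half-width from repeated spots, which leaves out the scatter between cultures, and dashed lines mark 2-fold. Myc is the only member past 2-fold below 0 in the LIFR KO comparison, and the repressor genes lie above 0 there.

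The members past 2-fold and past 1.5-fold were counted beside the share of all genes past the same threshold. These counts rest on very few genes. In the LIFR KO over wildtype, 1 of the 8 members compared was at least 2-fold higher (Mxd1) and 1 at least 2-fold lower (Myc), against 2.87% and 1.58% of all 14553 genes. At 1.5-fold, 3 were higher (Mxd1, Mxd3 and Mnt) and 1 lower (Myc), against 6.5% and 7.4% of all genes. No member of the gp130 KO over wildtype comparison passed 2-fold either way, against 1.59% of genes higher and 0.792% lower. There 1 member, Mxd1, was at least 1.5-fold higher and none lower, against 4.57% and 3.12% of genes. Between the knockouts, gp130 KO over LIFR KO, Myc alone was at least 2-fold higher and none lower, against 1.28% and 2.07% of genes. At 1.5-fold, 1 member was higher (Myc) and 2 lower (Mxd1 and Mnt), against 5.37% and 4.69% of genes. The median log2 ratio of the 8 members was 0.38, 0.13 and -0.31 in these comparisons, and that of all genes -0.03, 0.03 and 0.05.

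The gap between Myc and its antagonists was read as the difference of their log2 ratios, a measure that no rescaling of an array moves. From the wildtype to the LIFR KO array, Myc moved against Mxd1 by -3.23 on the log2 scale, a shift of 9.41-fold. Over 14 other ways of processing, this difference lay between -3.48 and -3.02. Several of the 14 could not move it, such as those that rescale an array or change the handling of dim probes. Against Mnt the shift was -2.64, or 6.23-fold, with a range of -2.66 to -2.56. Myc and Mnt have 1 probe each, so the choice of probe could not move this shift either. Against Max, the shared partner, it was -2.05, or 4.14-fold. The same differences were smaller in the gp130 KO sample, -1.11 against Mxd1 (2.15-fold) and -0.58 against Mnt. These are shifts in the balance of RNA signals between arrays, and protein was not measured.

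**Figure D3:**
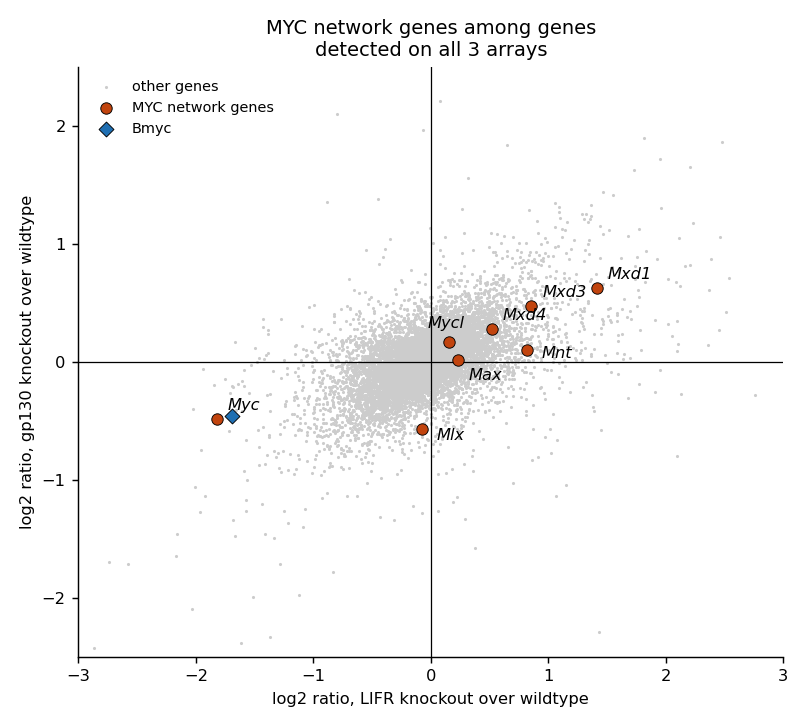
Log2 ratio in the LIFR KO (x axis) and in the gp130 KO (y axis) over the same wildtype array for 12243 genes outside stray signal and well above background on all 3 arrays, with 6 genes beyond the axes not drawn. Each point is a gene from 1 array per genotype; since the wildtype array enters both axes, its own error moves points along the diagonal. Myc sits low on the x axis beside Bmyc, Mxd1 and Mxd3 at the upper right, and Mlx near 0 on the x axis and below 0 on the y axis.

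The genes most like Myc were sought by the distance between pairs of log2 ratios, those of the knockouts over wildtype, among 12243 genes outside stray signal and well above background on all 3 arrays. The nearest was Bmyc, a relative of Myc whose protein lacks the MAX-binding part, at a distance of 0.13. Bmyc read 733 on the wildtype, 255 on the LIFR KO and 524 on the gp130 KO array, with log2 ratios of -1.69 and -0.46. The Bmyc and Myc probes target related genes, and whether either binds RNA of the other was not tested. The next were H2bc14 and H3c13, which encode core histones, with Clec2d, a lectin gene, and Mir100hg, a microRNA host gene, at distances of 0.14 to 0.22. For Mxd1 the nearest were Elavl3, Mok, Slc25a42, Cbx2 and Mknk2, at distances of 0.04 to 0.12. Mknk2, the gene of a kinase of the translation factor eIF4E, had log2 ratios of 1.40 and 0.74. With 3 arrays, many genes lie close to any given pair of ratios by their number alone.

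Among the partners of the network outside the members, none passed 2-fold. Of all genes, 2.87% were at least 2-fold higher and 1.58% lower in the LIFR KO over wildtype. In the gp130 KO over wildtype these shares were 1.59% and 0.792%. Mlxipl, the glucose-sensing partner of MLX also called ChREBP, read 992 on the wildtype, 1457 on the LIFR KO and 1040 on the gp130 KO array, log2 ratios of 0.38 and 0.09. Mga, a MAX partner that represses germ cell genes, had log2 ratios of -0.07 and 0.38. Zbtb17, which encodes the MYC partner MIZ1, was detected on no array. The 12 coactivator genes, among them the acetyltransferase gene Kat2a, were all measured on every array and none passed 2-fold. Their median log2 ratio was 0.08 in the LIFR KO and 0.18 in the gp130 KO sample. With normexp the first was -0.33 on all spots and 0.09 fitted without stray signal. Kat2a stood at 0.13 and 0.31. Of the 11 corepressor genes that MXD and MNT use, none passed 2-fold, with medians of 0.22 and 0.14. The first was 0.15 with stray signal left out, which drops Sin3a. With normexp it was -0.02 on all spots and 0.23 fitted without stray signal. Sap30, a subunit of the SIN3 complex, was the highest outside stray signal in the LIFR KO sample at 0.55, and was at -0.00 in the gp130 KO sample.

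Among genes that set the amount of MYC protein or act on Myc transcription, 1 passed 2-fold, beside the shares of all genes given above. Fbxo32, the gene of a ubiquitin ligase subunit best known from muscle wasting, read 84.4 on the wildtype, 245 on the LIFR KO and 195 on the gp130 KO array. It was 2.58-fold and 2.35-fold above wildtype (log2 ratios 1.37 and 1.23), the only one of 16 turnover genes past 2-fold in either knockout. Gsk3b, the gene of a kinase that marks MYC for degradation, was at 0.58 in the LIFR KO and 0.26 in the gp130 KO sample, and Usp36, the gene of a nucleolar deubiquitinase, at -0.15 and -0.57. The turnover genes had medians of 0.10 and 0.05. With normexp the first was -0.21 on all spots and 0.07 fitted without stray signal. None of the factors known to act on Myc transcription passed 2-fold, of 14 compared in the LIFR KO and 15 in the gp130 KO sample. Their medians were 0.14 and 0.06. With normexp the first was -0.17 on all spots and 0.15 fitted without stray signal. Foxo1 and Tcf7l1, a repressor of Wnt target genes, were at 0.41 and 0.40 in the LIFR KO sample. Stat3, which encodes the factor that LIF activates through gp130, read 1618 on the wildtype, 2385 on the LIFR KO and 1471 on the gp130 KO array, log2 ratios of 0.39 and -0.11.

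The genes that MYC is known to activate were read as lists, by counts and medians. Of 57 nucleolar and growth genes that MYC is known to activate, all were measured on every array. None was 2-fold lower in either knockout. In the LIFR KO sample 38 (66.7%) lay below 0, against 53.8% of all genes, with a median log2 ratio of -0.10. For the gp130 KO sample 43 (75.4%) did, against 45.5% of all genes, with a median of -0.09. Over the 14 other settings the medians ranged from -0.45 to -0.07 and from -0.12 to -0.08. The -0.45 came from normexp fitted on all spots, and normexp fitted without stray signal gave -0.07. The lowest in the LIFR KO sample, named after their values were seen, were the ribosome assembly genes Ppan, Gnl3 and Nop56, at -0.65, -0.61 and -0.59. Their gp130 KO ratios were -0.33, -0.39 and -0.30. Dusp2, a phosphatase gene of the same list, went the other way in the LIFR KO sample, with signals of 249, 591 and 155 and log2 ratios of 1.07 and -0.66. Sord also passed 2-fold there, but its spot lies in the stray signal. Of 27 classic MYC-activated genes, 19 (70.4%) lay below 0 in each knockout, against 53.8% and 45.5% of all genes, with medians of -0.11 and -0.09. With stray signal left out, 18 of 26 lay below 0 in the LIFR KO and 17 of 26 in the gp130 KO sample. In this list only E2f2, the gene of a cell cycle factor, passed 2-fold, higher in the LIFR KO sample (signals of 705, 1761 and 798 and log2 ratios of 1.15 and 0.21).

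**Figure D4:**
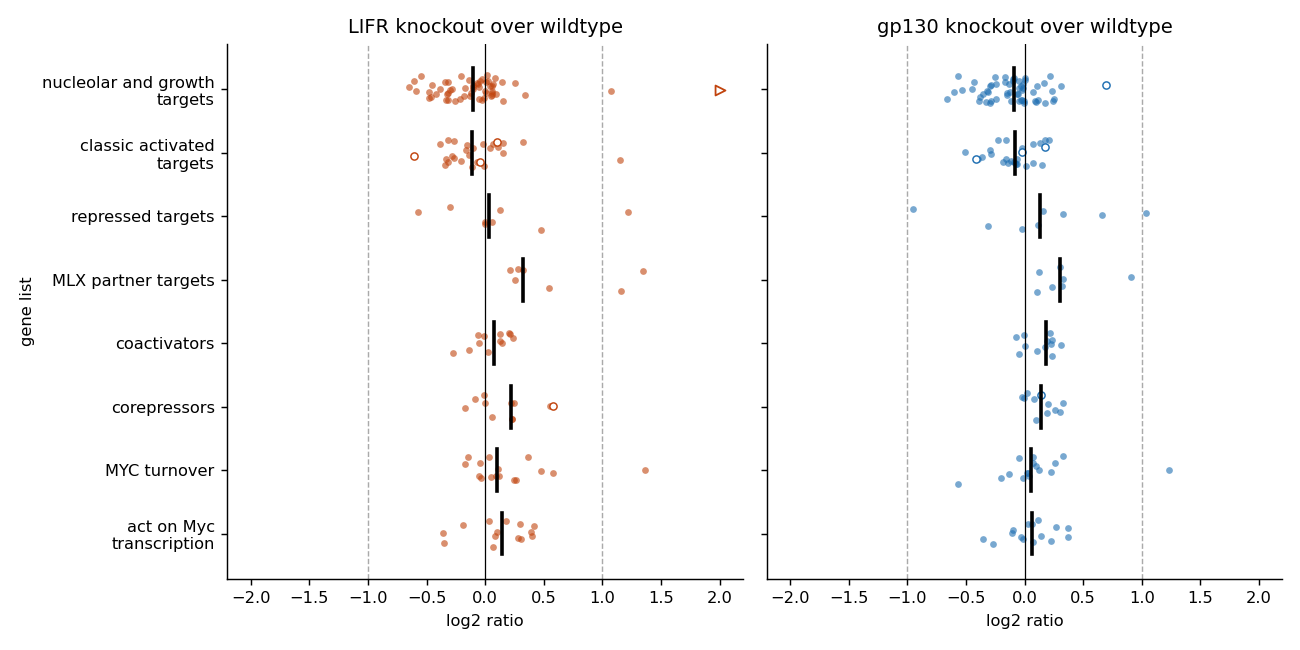
Log2 ratio over wildtype of the genes of 8 lists tied to the MYC network, LIFR KO at left and gp130 KO at right, with 1 array per genotype. Each circle is a gene, open where its spot lies in the stray signal of the LIFR KO array, a triangle at the edge stands for Sord beyond the axis, black bars are list medians and dashed lines mark 2-fold. The lists of activated targets centre slightly below 0 in both panels and the MLX partner targets above it.

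Genes that MYC is known to repress were mixed. Of 10, 8 could be compared in each knockout, with medians of 0.03 and 0.13, and over the 14 other settings the first ranged from -0.01 to 0.10. Gadd45a, a growth arrest gene, read 995 on the wildtype, 2601 on the LIFR KO and 2003 on the gp130 KO array, log2 ratios of 1.22 and 1.04. It was the only one past 2-fold in either knockout. Of the cell cycle inhibitor genes on this list, Cdkn1b was at 0.48 and 0.66. Cdkn1a read 430, 505 and 218, so its log2 ratios were 0.06 and -0.95.

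All 7 measured targets of the MLX partners, of 8 listed, lay above wildtype in both knockouts, where 53.8% and 45.5% of all genes lay below it. Their medians were 0.32 and 0.30. Txnip, the glucose-induced gene of an inhibitor of glucose uptake, read 334 on the wildtype, 956 on the LIFR KO and 617 on the gp130 KO array, 2.54-fold and 1.88-fold above wildtype (log2 ratios 1.34 and 0.91). Its relative Arrdc4 was at 0.54 and 0.32. Klf10, a gene that TGF-beta also induces, read 4127, 10388 and 4411, with log2 ratios of 1.16 and 0.12. The lists were chosen with earlier results of these data known and hold a few genes each, so nothing particular to a list is read from these counts.

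Markers of other cells differed between the arrays as well. All 5 leukocyte markers on the array lay below wildtype in the LIFR KO sample, against 53.8% of all genes. In the gp130 KO sample Itgam was level with wildtype (log2 ratio -0.0008) and the others lay below, against 45.5% of all genes. With stray signal left out, 4 of the 5 lay below there. The summed scaled signals were 1783, 1288 and 1603 on the wildtype, LIFR KO and gp130 KO arrays, and none of the 5 was at background. Of 10 detected stem cell markers, 7 lay below wildtype in the LIFR KO sample (6 with stray signal left out) and 4 in the gp130 KO sample, against 53.8% and 45.5% of all genes, with sums of 2989, 2637 and 3167. For 10 fibroblast markers, of which 4 were detected on every array and 3 on no array, the sums were 616, 798 and 765. Col1a1 was 3.24-fold higher in the LIFR KO than in wildtype, where 2 of 7 compared lay above 0 and 3 below. Dcn was 2.07-fold higher in the gp130 KO than in wildtype, where 6 of 7 lay above 0 and 1 below. The 12 epithelial markers summed to 80611, 85509 and 84163. In the LIFR KO sample 8 of them lay above wildtype and 4 below, with Cldn4 2.21-fold higher and Esrp1 1.64-fold lower. The 6 trophectoderm markers, with Cdx2 and Elf5 well above background on no array, summed to 8547, 9087 and 12064. Most of that sum is Gata3, with signals of 8287, 10003 and 11565, while Tfap2c was at least 2.25-fold lower in the gp130 KO than in the wildtype sample. The part of these differences in the ratios of the MYC network genes was not tested.

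**Figure D5:**
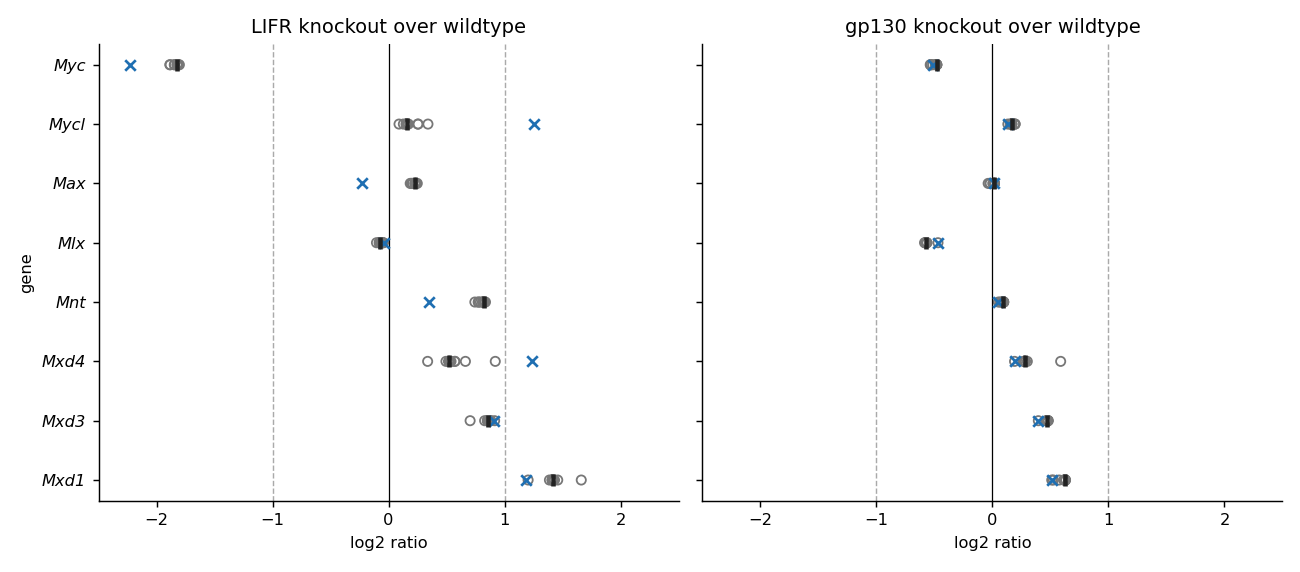
Log2 ratio over wildtype of the 8 measured members under the main processing (black bar) and 14 other settings, LIFR KO at left and gp130 KO at right. Open circles are single settings, blue crosses are normexp background correction fitted on all spots, and dashed lines mark 2-fold. Myc stays past 2-fold below 0 in the LIFR KO panel under all 14, from -2.23 to -1.80, and Mxd1 past 2-fold above 0. Some of the 14 act only on dim probes or on the choice of probe and cannot move Myc.

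Myc and Mxd1 kept their direction and stayed past 2-fold in the LIFR KO comparison under every other setting run. In the LIFR KO over wildtype, Myc lay between -2.23 and -1.80 and Mxd1 between 1.18 and 1.66 over these 14 settings. Settings on dim probes, the floor and the choice of probe could not change Myc, which has 1 probe detected on every array. Those that only rescale an array shift all its genes alike. Mxd3 lay between 0.70 and 0.91. Mnt was at 0.35 and Mxd4 at 1.24 with normexp fitted on all spots, a correction whose fit on the LIFR KO array includes the stray signal. Fitted without those spots, normexp gave Mnt 0.74, Mxd4 0.34 and Myc -1.81. That Mxd4 value was its lowest over the 14 settings. For the gp130 KO over wildtype, Myc lay between -0.54 and -0.48, Mxd1 between 0.51 and 0.63 and Mlx between -0.59 and -0.47.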

How the data were processed

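Microarray signals of the members were read on 3 arrays, grouped by the genotype in the labels. Per the file headers, Feature Extraction 11.0.1.1 read arrays of design 026655 on build mm9, while the submitters' processing notes name version 9.1. The deposited intensity is the software's background-subtracted and detrended processed signal, not normalised between arrays. The deposited flags, another kind of value of 0 or 1, mark spots well above background, outliers and saturation. The log2 values in the authors' series matrix, an alternative here, had a median of 5.38 in each column and tracked the log2 processed signal across probes (r of 0.995 to 0.999), so their scale and direction were found by this match, while their normalisation is not given in the sources used here.

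Outlier spots, 97 to 222 on each array, were removed and no spot was saturated. The log2 signal was set against the array's 75th percentile over non-control spots, and spots of a probe were averaged. Accessions were matched to the RefSeq gene table, which named 69.1% of probes. Each gene was read from its brightest probe, and a ratio was taken where at least 1 array was well above background. With the other array dim, it is a bound against the lowest detected signal (6.94, 16.7 and 9.66), and such bounds entered counts of all genes. No member needed one. With 1 array a genotype no test was run. The number of arrays limits precision. Ratios past 2-fold were counted, and the counting was run on simulated data with large changes in detected probes. That run checks the arithmetic only. It holds no planted changes in dim probes or near the threshold, and no scatter between cultures. Normexp in limma 3.58.1 (R 4.3.3, offset 50) used the median spot signal. Stray signal was a local background over 3 times the array median, with 5 rows and columns around it. All 3 arrays share 1 scan. Genes of the lists other than markers were named where past 2-fold in either knockout, otherwise as the most different of a list. The 5 nearest to Myc and to Mxd1 were also named, and markers were named as examples. Stat3, Gsk3b, Usp36, Cdkn1a, Cdkn1b and Arrdc4 were named outside this rule, after their values were seen. The members and lists were chosen with earlier results of these data known.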

Additional observations from a re-analysis of the deposited data

How the results depend on the processing

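The members at least 2-fold apart numbered 2 in the LIFR KO over wildtype. They were 4 with normexp fitted on all spots and 4 at a 1.5-fold threshold. For the gp130 KO over wildtype there were 0, and 1 without a filter on dim probes (Mycn, below background) and 1 at 1.5-fold. Between the knockouts there was 1. There were 3 with normexp on all spots and 3 at 1.5-fold, and 2 each without the filter, with the mean of all probes and with the probe of median ratio. Myc was -2.23 in the LIFR KO over wildtype and 1.71 in the gp130 KO over the LIFR KO with normexp on all spots. Of the 8 measured members, Max in all 3 comparisons and Mycl between the knockouts changed sign under some of the 14 settings.

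Counts over all genes depended more on the processing. In the LIFR KO over wildtype, 418 genes were 2-fold higher and 230 lower. They were 3306 and 94 with normexp on all spots, 125 and 70 with normexp fitted without stray signal, and 651 and 1006 without a filter. With both arrays required above background, 254 were higher. For the gp130 KO over wildtype, 237 and 118 became 10 and 33 with normexp, 77 and 67 with both arrays required, and 651 and 598 without a filter, and 145 were higher with the lowest spot as floor. Between the knockouts, gp130 KO over LIFR KO, 189 and 305 became 47 and 3274 with normexp on all spots, 45 and 92 without stray signal in its fit, 123 and 186 with both arrays required, and 959 and 566 without a filter. Leaving out a replicate was not possible, and no paired analysis was possible because each group has 1 array.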
